A study of Mus musculus with 18 samples.

Results

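The major histocompatibility complex (MHC) class I pathway was followed through 10 genes, H2-D1, H2-K1, H2-T23, B2m, Tap1, Tap2, Tapbp, Psmb8, Psmb9 and Nlrc5. They were chosen by symbol from the 55291 gene symbols of the data. All 10 were among the 17901 genes with a mean CPM (counts scaled to the library total) of at least 0.5 over the 18 libraries, which were the genes tested. Wild-type male C57BL/6J mice received RiboTag AAV (AAV_DJ-GfaABC1D-EGFP-Rpl10a) in the right CA3 at 6 weeks of age. This virus puts a GFP-tagged ribosomal protein under an astrocyte promoter, and every group carried it. The AAV control group had no second injection and was collected 2 weeks after the AAV. The KA group received kainic acid, a glutamate receptor agonist that produces mesial temporal lobe epilepsy, in the right dentate gyrus 2 weeks after the AAV, and was collected 14 days later. The PBS group received the vehicle in place of KA after the AAV. Each group had 3 samples (#1 to #3), each a pool of right hippocampi from 3 to 4 mice. From each homogenate an input library of total hippocampal RNA and an IP library, precipitated with anti-GFP, were made.

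MHC class I molecules show peptides from inside the cell to CD8+ T cells and natural killer cells. The proteasome cuts the peptides, with Psmb8 and Psmb9 as catalytic subunits of its interferon-inducible form, the immunoproteasome. Tap1 and Tap2 form the transporter that carries peptides into the endoplasmic reticulum, and tapasin (Tapbp) holds an empty class I molecule beside it. The heavy chains H2-K1 and H2-D1 are the classical class I chains of this strain, H2-T23 (Qa-1) is a non-classical chain, and B2m is the light chain they all need. Nlrc5 is the transactivator of class I genes. In healthy brain the pathway is low in most cells, and interferons raise it in glia.

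Library totals ranged from 7991681 to 16032180 counts. In the text FPKM is the deposited value per length and depth, and folds are log2 values from edgeR with their standard error (SE), with TMM scaling unless stated. A gene was called at an adjusted p under 0.05. Counts under alternative fits that are given without a share of all genes called cannot be weighed against such a share. The summed FPKM of 8 astrocyte markers was 3.09 times higher in IP than in input in the KA group, 11.2 times in the AAV control group and 10 times in the PBS group (means of 3 pairs). For 12 microglia markers the same ratios were 0.0253, 0.111 and 0.140. For 8 oligodendrocyte markers they were 2.23, 0.642 and 0.66, so KA IP libraries were also enriched in oligodendrocyte transcripts. One sample stood apart for the class I genes: AAV control #3, in its IP library and to a lesser degree in its input library. Each comparison of the 10 genes with the AAV control group is therefore given with and without it. It was singled out by its values of these same genes, so calls without it partly follow from that choice. Run 1 held the libraries of KA #1 and #2 and of AAV control #1 and #2, run 2 those of KA #3 and AAV control #3, and run 3 those of PBS. For PBS, the run and the group cannot be told apart, and the KA and AAV control groups also differ in time since the AAV.

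Of the 10 genes, 8 lie on chromosome 17 within 2.12 Mb of each other (GRCm38, GENCODE M21). Tapbp is at chr17:33915899-33929292, H2-K1 at chr17:33996017-34000347, H2-D1 at chr17:35262730-35267499 and H2-T23 at chr17:36029773-36032855. Between them Psmb9, Tap1, Psmb8 and Tap2 follow each other within 34.3 kb. B2m is at chr2:122147686-122153083 and Nlrc5 at chr8:94434356-94527272. Tap1 and Psmb9 run in opposite directions, and the start sites of their RefSeq transcripts are 226 bases apart. Some of their annotated exons share 212 bases, and the library kit does not mark strand, so reads there cannot be assigned to either gene. Exons of Tap2, Tapbp, Psmb8 and Nlrc5 also share bases with other annotated genes, up to 24.9% of the exon bases for Tapbp. Of the 50-base stretches in the transcripts of H2-D1, H2-K1 and H2-T23, 12.8%, 9.63% and 13.6% also occur in another gene, mostly other class I heavy chains, so part of their reads is uncertain in origin.

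The promoters of B2m and H2-K1 are shown because the light chain and a classical heavy chain lie on different chromosomes and moved together in these libraries. Both are the 200 bases before the RefSeq start site (GRCm38.p6), chr2:122147487-122147686 on the plus strand and chr17:34000348-34000547 on the minus strand. Capitals mark matches on either strand to the interferon regulatory factor core AANNGAAA, the CRE-like TGACG, the CCAAT box and the NF-kB motif.
B2m: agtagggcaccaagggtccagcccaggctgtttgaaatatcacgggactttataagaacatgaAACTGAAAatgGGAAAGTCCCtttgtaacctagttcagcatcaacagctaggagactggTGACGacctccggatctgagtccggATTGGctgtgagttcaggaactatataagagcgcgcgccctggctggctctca
H2-K1: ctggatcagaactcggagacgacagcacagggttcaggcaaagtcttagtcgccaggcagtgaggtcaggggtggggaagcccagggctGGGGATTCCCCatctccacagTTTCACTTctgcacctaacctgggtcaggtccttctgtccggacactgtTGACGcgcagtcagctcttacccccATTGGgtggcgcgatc
In both promoters the order from the far end was an IRF core and an NF-kB match in either order, then TGACG, then CCAAT read on the opposite strand (ATTGG). Promoter sequences were held for 8 of the 10 genes, not for Tap2 and Nlrc5. In the 250 bases before the start, TGACG with CCAAT was found in 5 of the 8 (B2m, H2-D1, H2-K1, Psmb9 and Tap1) and in 6.12% of 32851 mouse promoters. The windows of Tap1 and Psmb9 overlap, and their TGACG and CCAAT matches are the same sites read from both sides. The 5 are therefore not separate cases, and their count cannot be weighed against the share of all promoters. With the IRF core as well it was found in B2m, H2-D1 and H2-K1 and in 1.08% of all promoters. Singly, the IRF core occurred in 21.3%, TGACG in 17.8%, CCAAT in 33.8% and the NF-kB motif in 7.25% of all promoters. The H2-D1 and H2-K1 promoters were 91.0% identical over 177 aligned bases. These matches describe letters in a window and are not evidence of binding.

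Per length, the light chain was the most abundant of the 10 in all 6 groups, followed by H2-D1. In KA IP libraries mean FPKM was 764 ± 111 for B2m (SD, n = 3), 181 ± 11.5 for H2-D1, 89.6 ± 15.0 for H2-K1 and 26.8 ± 3.57 for H2-T23. Tapbp (11.1 ± 2.16) and Psmb8 (8.51 ± 0.956) overlapped, as did Psmb9 (4.72 ± 0.883) and Tap2 (4.48 ± 1.13). Tap1 (1.95 ± 0.648) and Nlrc5 (0.253 ± 0.0621) were lowest. In PBS input the order was alike with these exceptions. H2-T23 (8.76 ± 1.09) stood above H2-K1 (6.73 ± 1.17), and Tap2 (1.08 ± 0.463) above Psmb9 (0.803 ± 0.0998), though Tap2 and Psmb9 overlapped. Nlrc5 had no counts in any of the 3 PBS input libraries, where up to 3 counts per library would be compatible with 0 found.

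**Figure D1:**
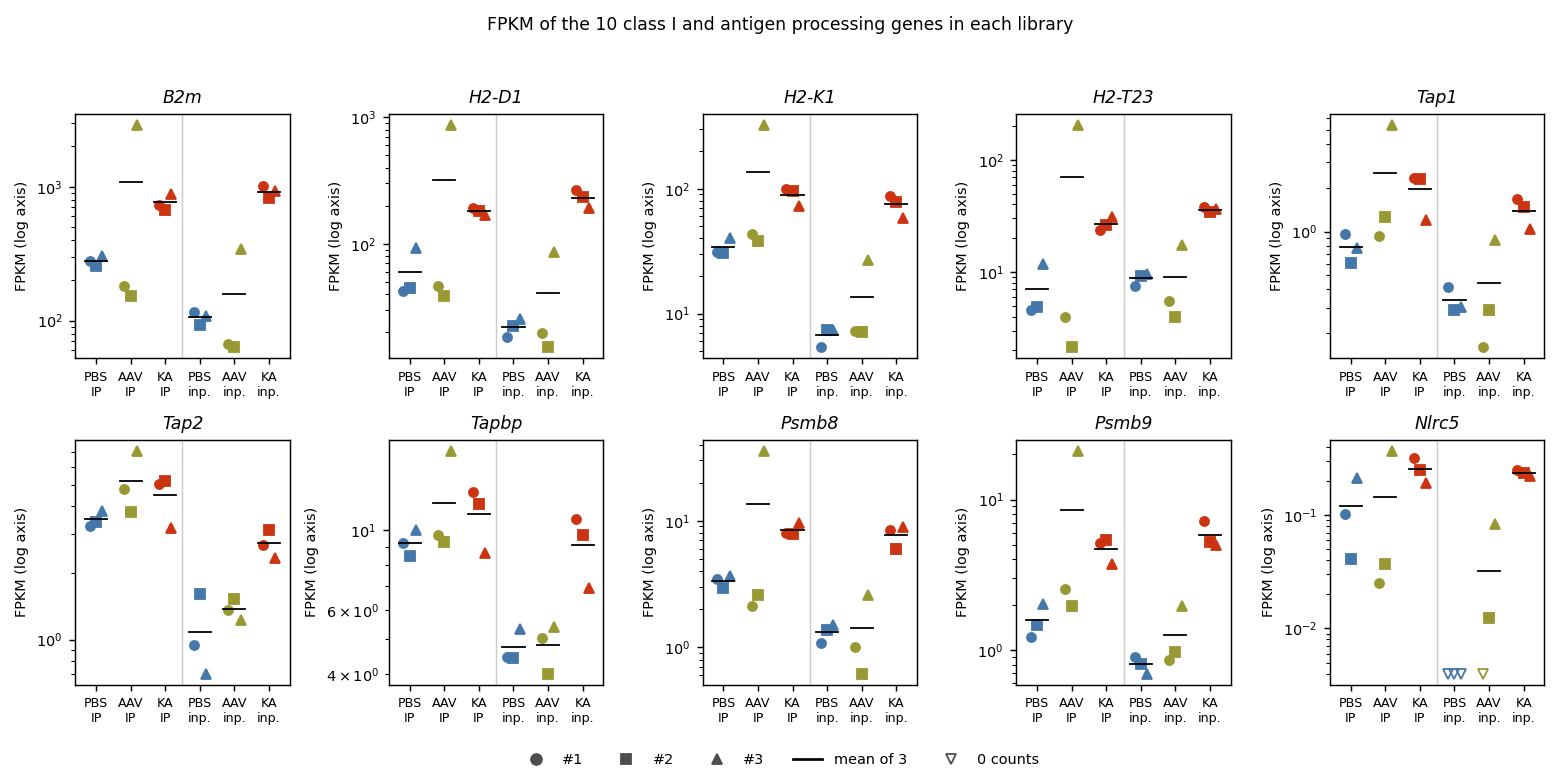
FPKM (log axis) of each gene in the 18 libraries by group, with IP on the left and input on the right of each panel. Symbols are samples #1 to #3, bars are means of 3 and open triangles are libraries with 0 counts. In AAV control IP #3 all 10 genes lie above every KA IP library, while in input every KA library lies above every control library.

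The first question was whether KA changed class I transcripts on astrocyte ribosomes. In IP libraries, 8 of the 10 genes were higher in KA than in PBS, against 18.6% of all genes tested that were called higher. The 4 chains and Tap1, Psmb8, Psmb9 and Nlrc5 passed the test, by 2.55- to 4.60-fold, and Tap2 and Tapbp did not. The KA libraries of 7 of the 10 lay above every PBS library, against 17% of all genes. Over the 10 genes the median log2 fold was 1.57, and over all genes it was -0.05. Scaling by library totals alone lowers every log2 fold of this comparison by about 0.21, the shift of the median gene. In a fit of all 18 libraries, in which the AAV control group enters the spread, 3 of the 10 were called (H2-K1, Tap1 and Psmb9).

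For B2m, KA IP values were 731, 672 and 888 FPKM and PBS IP values were 279, 254 and 304. All KA libraries were above all PBS libraries, with a log2 fold of 1.67 (SE 0.29, adjusted p = 0.000598). H2-D1, which carries peptides to CD8+ T cells, was at 192, 182 and 169 in KA IP and at 42.0, 44.6 and 92.5 in PBS IP. PBS #3 was above its partners, but the groups did not overlap, and the log2 fold was 1.85 (SE 0.28, adjusted p = 0.000242). H2-K1, its classical counterpart, was at 99.7, 96.7 and 72.3 FPKM against 31.3, 30.5 and 40.7, with a log2 fold of 1.59 (SE 0.23, adjusted p = 0.000138). H2-T23 presents leader peptides of other class I chains to natural killer cell receptors. Its values were 23.8, 26.0 and 30.8 in KA IP and 4.58, 4.85 and 11.9 in PBS IP, the largest log2 fold of the 10 in this comparison at 2.20 (SE 0.27, adjusted p = 4.48e-05).

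Of the immunoproteasome subunits, Psmb8 was at 8.05, 7.87 and 9.61 FPKM in KA IP and 3.47, 2.93 and 3.63 in PBS IP (log2 fold 1.56, SE 0.21). Psmb9 was at 5.10, 5.35 and 3.71 against 1.23, 1.46 and 2.03 (log2 fold 1.80, SE 0.23). Both passed, with adjusted p of 9.74e-05 and 6.06e-05, and neither overlapped between groups. Tap1 was at 2.35, 2.30 and 1.20 against 0.957, 0.608 and 0.765 FPKM (log2 fold 1.49, SE 0.29, adjusted p = 0.00132). Tap2 was at 5.06, 5.21 and 3.19 against 3.27, 3.38 and 3.80, with KA #3 below all PBS libraries and a log2 fold of 0.54 (SE 0.22, adjusted p = 0.0619). Tapbp was at 12.8, 11.8 and 8.68 against 9.24, 8.47 and 10 (log2 fold 0.45, SE 0.19, adjusted p = 0.0713). Whether the fold of Tap1 differs from that of Tap2 was not tested. Nlrc5 had only 18 to 30 counts in KA IP and 4 to 19 in PBS IP. Its call (log2 fold 1.35, SE 0.50, adjusted p = 0.0459) was lost without any 1 of 4 libraries (KA #1 or #2, PBS #1 or #2), and by scaling on totals (adjusted p = 0.173).

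Microglia markers were also higher in KA IP, with summed FPKM of 51.2 to 80.4 against 26.2 to 48.5 in PBS IP and 18.4 to 35.0 in AAV control IP. Oligodendrocyte markers were at 1378 to 2618 in KA IP, against 289 to 594 and 258 to 1119. Astrocyte markers were lower, at 2506 to 2802 against 5601 to 9782 and 5025 to 8250. T and natural killer cell markers were at 1.48 to 2.74, 1.76 to 2.48 and 2.71 to 3.35, sums held mostly by Trac, a T cell receptor chain, which was not called against PBS (adjusted p = 0.783). Nkg7, a cytotoxic granule gene and the other of the 2 tested markers of this list, was at 0.210 to 0.499 FPKM in KA IP, with 0.0683 in PBS IP #1 and 0 in #2 and #3 (adjusted p = 0.0277). The part of these changes in the class I values was not tested. In the homogenates of KA mice the 10 genes had a summed IP to input ratio of 0.852 ± 0.102, and that of microglia markers was 0.0253 ± 0.00146 (SD, n = 3). The sum of the 10 is held mostly by B2m and H2-D1. Mean KA ratios of single genes ranged from 0.747 (H2-T23) to 1.64 (Tap2). In bulk libraries, fewer cells of a type and less RNA per cell cannot be told apart.

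Against all 3 AAV control IP libraries, none of the 10 genes was called with edgeR, where 16.2% of all genes were called in either direction. None of the 10 had an unadjusted p under 0.05, DESeq2 also called none, and log2 folds ranged from -1.34 (H2-T23) to 0.82 (Nlrc5). This result turned on AAV control #3. B2m was at 183 and 153 FPKM in AAV control IP #1 and #2 but at 2910 in #3. H2-D1 was at 46.0, 38.5 and 876, H2-K1 at 43.8, 38.2 and 326, and H2-T23 at 3.99, 2.14 and 205. In each of these genes #3 was above all KA IP libraries while #1 and #2 were below all of them.

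Without AAV control #3, 8 of the 10 genes were higher in KA IP than in AAV control IP, against 15.7% of all genes. This sample was left out after its high values of these same genes were seen, so the calls and adjusted p without it are a description. All but Tap2 and Tapbp passed, as against PBS. The log2 folds were 3.34 for H2-T23 (SE 0.30), 2.40 for B2m (SE 0.26), 2.29 for H2-D1 (SE 0.20), 2.05 for Psmb8 (SE 0.23), 1.31 for H2-K1 (SE 0.19), 1.24 for Psmb9 (SE 0.21) and 1.01 for Tap1 (SE 0.28). Their adjusted p ranged from 2.83e-05 (H2-D1) to 0.0221 (Tap1). Nlrc5 had 2 and 3 counts in the AAV control libraries left. Tap2 (log2 fold 0.24, adjusted p = 0.424) and Tapbp (0.41, adjusted p = 0.0945) did not pass. Within sequencing run 1, where #1 and #2 of both groups were compared, 9 of the 10 were higher, against 20.3% of all genes. With the run as a covariate over all 3 samples none was called, and with the replicate block none was called either, although both gave positive log2 folds for B2m (1.08 and 1.09) and H2-D1 (1.01 and 1.02). The KA libraries are shared by the comparisons with PBS and with AAV control.

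**Figure D2:**
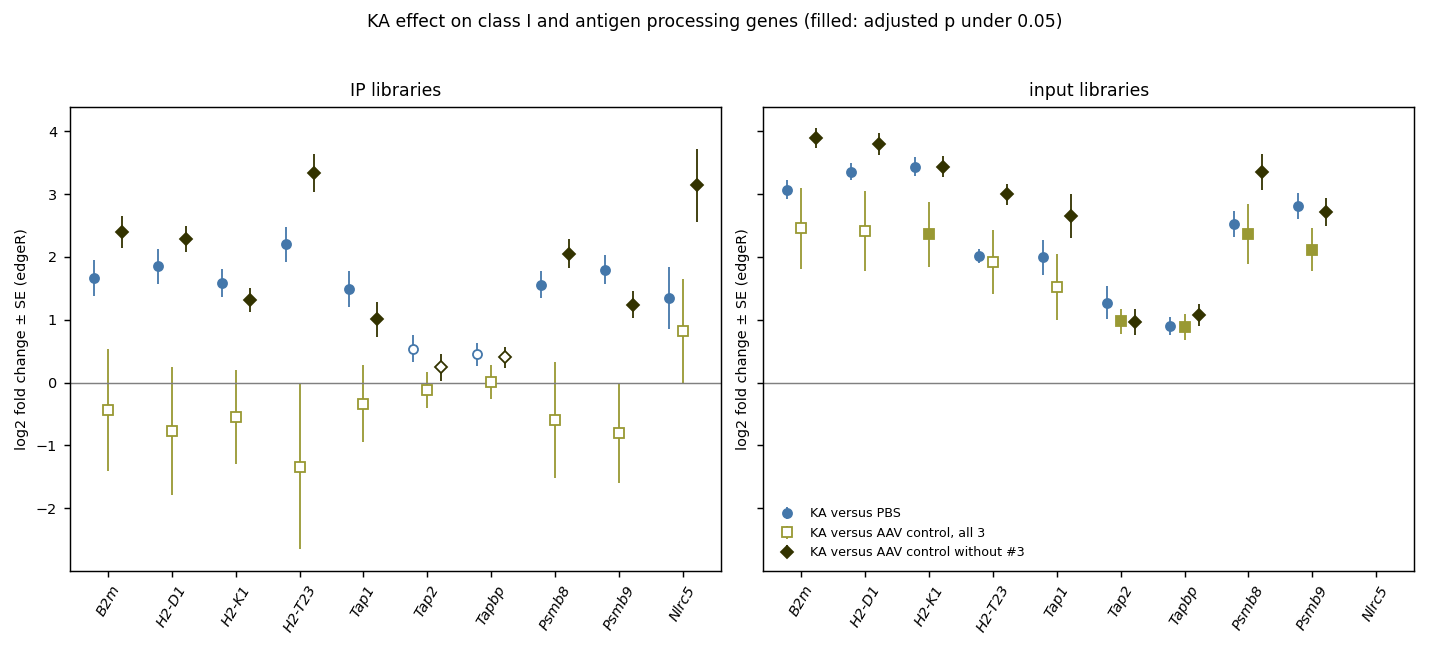
Log2 fold change (edgeR, bars are SE) of KA against PBS, against all 3 AAV control libraries and against AAV control without #3, in IP and in input libraries. Filled symbols had an adjusted p under 0.05, and Nlrc5 is left out of the input panel because its PBS libraries had 0 counts. In IP libraries the comparison with all AAV control libraries has wide errors around 0, while the other comparisons lie above 0 for all genes.

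In input libraries, which hold RNA of all hippocampal cells, all 10 genes were higher in KA than in PBS, against 14.8% of all genes. All KA values lay above all PBS values for all 10, against 19.7% of genes. Folds were larger than in IP for most of the genes, and the test of that difference is given with the IP to input ratios. B2m rose from 117, 92.7 and 109 FPKM in PBS input to 1006, 825.5 and 924 in KA input (log2 fold 3.07, SE 0.16, adjusted p = 2.18e-08). H2-K1 rose from 5.39, 7.34 and 7.46 to 87.8, 78.7 and 58.6 (log2 fold 3.44, SE 0.14, adjusted p = 4.86e-09). H2-D1 rose from 18.3, 22.4 and 25.4 to 267, 235 and 192 (log2 fold 3.36, SE 0.14, adjusted p = 3.87e-09). For H2-T23 the values were 7.51, 9.23 and 9.53 against 37.6, 33.9 and 36.6 (log2 fold 2.01, SE 0.11, adjusted p = 4.92e-08). No KA library came near a PBS library in these 4 chains.

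Psmb9 and Psmb8 had log2 folds of 2.81 (SE 0.21) and 2.53 (SE 0.20), and Tap1, Tap2 and Tapbp had 1.99 (SE 0.28), 1.27 (SE 0.27) and 0.90 (SE 0.14), with adjusted p of at most 0.0039. Tap2 and Tapbp, which did not pass in IP, thus passed in input. Tap2 was at 2.68, 3.14 and 2.33 FPKM in KA input and at 0.948, 1.60 and 0.702 in PBS input. Nlrc5 had 19 to 21 counts in KA input and 0 in PBS input, which makes it at least 6.86-fold higher in KA with a floor of 3 counts per library. Microglia markers in input summed to 2158 to 3018 FPKM in KA, 221 to 255 in PBS and 154 to 372 in AAV control. Nkg7 was at 2.76 to 4.19 FPKM in KA input and at 0 to 0.102 in PBS input (adjusted p = 5.08e-05). The part of both in the input values was not tested.

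Against AAV control input, the KA libraries of all 10 genes lay above all AAV control libraries, against 14.1% of genes. With 5.02% of all genes called higher, 5 of the 10 passed: H2-K1 (log2 fold 2.36, SE 0.53), Psmb8 (2.37, SE 0.48), Psmb9 (2.12, SE 0.35), Tap2 (0.98, SE 0.20) and Tapbp (0.89, SE 0.21), with adjusted p from 0.00763 to 0.0366. The other 5 had adjusted p of 0.0603 to 0.152. B2m was at 66.5 and 63.2 FPKM in AAV control input #1 and #2 and at 340 in #3, below the lowest KA value of 825.5. Same-numbered KA and AAV control libraries deviated together, but they are pools of different mice that share a sequencing run, and no other pairing by number is known. The fit with the replicate block called 9 of the 10, all but Tap1 (adjusted p = 0.0523), and that with the run as a covariate called 10. The share of all genes called in these fits is not given here, so their counts have no background beside them. Leaving out AAV control #3 gave 10 of 10 (12.4% of all genes called higher), with log2 folds from 0.97 (Tap2) to 3.89 (B2m) among the genes with more than 3 counts per library. Leaving out KA #1, in contrast, gave 0 of 10, and leaving out 1 of KA #2, KA #3, AAV control #1 or AAV control #2 gave 1 to 3.

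The PBS and AAV control groups were compared to see what the vehicle injection changed. In IP, edgeR and DESeq2 called none of the 10 (0.0168% of all genes called by edgeR), though 8 had an unadjusted p under 0.05, all lower in PBS. In input both called none (0% of all genes called by edgeR), with 1 unadjusted p under 0.05. Without AAV control #3 none of the 10 was called lower in PBS. In IP, H2-T23 was higher in PBS (log2 fold 1.08, SE 0.32, adjusted p = 0.0441), where 4.21% of all genes were called higher. In input, H2-T23 (1.01, SE 0.14), B2m (0.83, SE 0.12) and H2-D1 (0.45, SE 0.11) were higher in PBS, with adjusted p of at most 0.00546, where 13.1% of all genes were called higher. Each of these log2 folds was smaller than that of KA against PBS for the same gene. Run 3 and the PBS group cannot be told apart here.

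The IP to input ratio of FPKM within a homogenate compares RNA precipitated with the GFP-tagged ribosomes with that of the whole hippocampus. In PBS samples it was above 1 in all 3 homogenates for 8 of the 9 genes with counts in every PBS input library, the exception being H2-T23. The share of all genes with such ratios is not given here. By the related measure of no overlap in FPKM, PBS IP lay above PBS input for 9 of the 10 genes, against 25.1% of all genes. H2-K1 had the highest mean ratio, at 5.81, 4.16 and 5.45, and B2m was at 2.39, 2.74 and 2.79. H2-T23 was at 0.610, 0.525 and 1.25. In KA samples the ratios of the 10 genes ranged from 0.633 (H2-T23) to 1.89 (Tap2), with H2-K1 at 1.14, 1.23 and 1.24, B2m at 0.727, 0.814 and 0.961, and H2-D1 at 0.718, 0.772 and 0.879. In AAV control samples the ratios of B2m were 2.74, 2.42 and 8.55, and those of H2-T23 were 0.726, 0.536 and 11.8, again with #3 apart.

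In the edgeR fit of IP against input, 9 of the 10 genes were higher in IP in PBS, all but H2-T23, against 24.8% of all genes. For Nlrc5 this rests on 0 counts in PBS input, so that IP was at least 3.48-fold higher. In KA, 4 were higher in IP against 15% of all genes: Tap2 (log2 fold 1.01, SE 0.19), Tap1 (0.77, SE 0.25), Tapbp (0.58, SE 0.17) and H2-K1 (0.56, SE 0.17). Scaling by library totals lowers log2 folds in KA by 0.30 and left 1 of these, and B2m then changes from 0.05 to -0.27, without passing in either scaling. The fit that pairs IP with its own input called 5 in KA, Psmb8 as well (log2 fold 0.44, adjusted p = 0.00798). Leaving out KA IP #1, KA IP #2, KA input #2 or KA input #3 also left 1 called. In AAV control 5 of the 10 passed against 16% of all genes (H2-K1, Tap1, Tap2, Tapbp and Psmb9). The paired fit called 9, all but H2-T23, and leaving out homogenate 3 called 8, all but H2-T23 and Nlrc5 (27.2% of all genes), with a log2 fold of 2.73 (SE 0.13) for H2-K1 and 1.59 (SE 0.12) for B2m. Leaving out only AAV control IP #3, input #1 or input #2 left 2.

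The difference between the KA effects in IP and in input was tested directly. With PBS as baseline, 6 of the 10 genes had a smaller KA effect in IP than in input, against 9.63% of all genes. The differences in log2 fold were -1.86 for H2-K1 (SE 0.24, adjusted p = 0.000103), -1.51 for H2-D1 (SE 0.29, adjusted p = 0.00197), -1.41 for B2m (SE 0.30, adjusted p = 0.0044), -1.01 for Psmb9 (SE 0.31, adjusted p = 0.0296) and -0.98 for Psmb8 (SE 0.29, adjusted p = 0.0256). Nlrc5 also passed (adjusted p = 0.00385), with a size that depends on its 0 counts in PBS input. The paired fit also called Tap2 (-0.795, adjusted p = 0.0342). The calls of Psmb8 and Psmb9 were the less stable, lost in 10 of 20 and 8 of 19 alternatives, among them limma-voom for both. In a fit of all 18 libraries, in which the AAV control group enters the spread, 0 of the 10 were called. The median gene was at -0.14. H2-T23 stood at 0.19 (SE 0.30, adjusted p = 0.685), with a 4.60-fold difference from PBS in IP and a 4.03-fold difference in input. With AAV control as baseline edgeR and DESeq2 called none of the 10 (2.81% of all genes called lower by edgeR), with 6 at an unadjusted p under 0.05. The replicate block called 8 as lower, all but H2-T23 and Nlrc5, and leaving out AAV control IP #2 or input #3 gave 2 and 1. Without both libraries of AAV control #3, 6 were lower (H2-D1, H2-K1, B2m, Tap1, Psmb8 and Psmb9) against 6.23% of all genes, at -2.13 (SE 0.24) for H2-K1. In the same homogenates the ratio of microglia markers was lower in KA than in either control (0.0237 to 0.0267 against 0.0940 to 0.196), and so was that of astrocyte markers (2.90 to 3.37 against 7.37 to 12). That of oligodendrocyte markers was higher in KA, at 1.79 to 2.67, against 0.317 to 1.18 in AAV control and 0.395 to 1.04 in PBS. The part of these markers in the class I ratios was not tested.

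**Figure D3:**
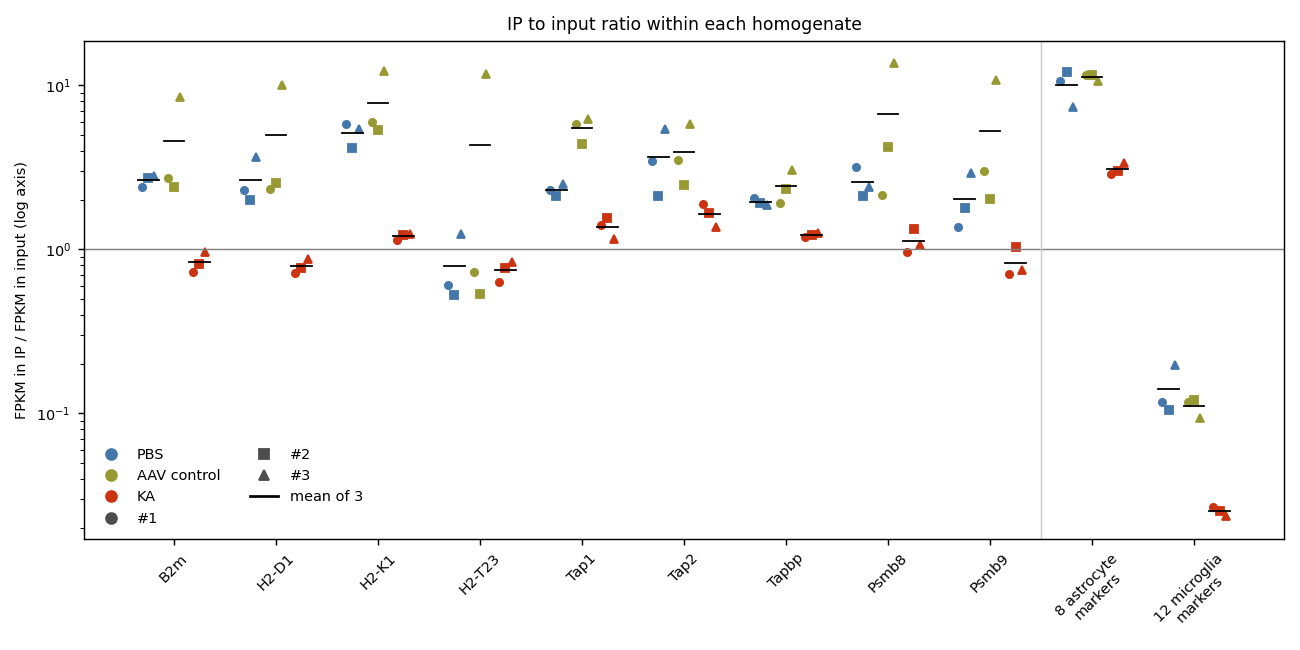
FPKM in IP divided by FPKM in input of the same homogenate (log axis) for 9 of the genes and for the summed FPKM of astrocyte and microglia markers. Symbols are samples #1 to #3 and bars are means of 3. KA ratios sit near 1 for the class I genes, and the ratios of AAV control #3 are the highest for all 9.

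AAV control #3 was described further because results of the class I genes turn on it. Its IP library held H2-T23 at 66.6 times the mean CPM of #1 and #2, H2-D1 at 20.7, B2m at 17.4, Psmb8 at 14.9, Nlrc5 at 9.95, Psmb9 at 9.21, H2-K1 at 7.95 and Tap1 at 4.93 (with 0.5 counts added in each library before scaling). These 8 of the 10 were at least 4 times higher, against 2.51% of all genes, while Tapbp and Tap2 were at 1.74 and 1.66. In its input library 3 of the 10 were at least 4 times higher, against 0.911% of all genes. The sample was singled out by its values of these same genes, so these counts are a description and not a result. For comparison, none of the 10 reached that ratio in sample #3 of KA IP or of PBS IP.

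In the same library MHC class II genes were also high, with a summed FPKM of 137 against 4.30 and 3.48 in #1 and #2, and Cd74, the class II invariant chain, was at 83.4 against 0.514 and 0.249. Irf1, a transcription factor of interferon signalling, was at 7.15 against 1.30 and 1.45. Cd74 and Irf1 were named here after their values were seen. Microglia markers summed to 35.0 in this library against 22.5 and 18.4, T and natural killer cell markers to 3.20 against 3.35 and 2.71 (of these, Nkg7 was at 0.342 against 0 and 0), and astrocyte markers to 8250 against 5657 and 5025. Oligodendrocyte markers summed to 1119 against 258 and 335, and their IP to input ratio was 1.18 against 0.317 and 0.43. The labels give this sample no other treatment than its partners, and what sets it apart was not tested. It was in run 2, as was KA #3.

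**Figure D4:**
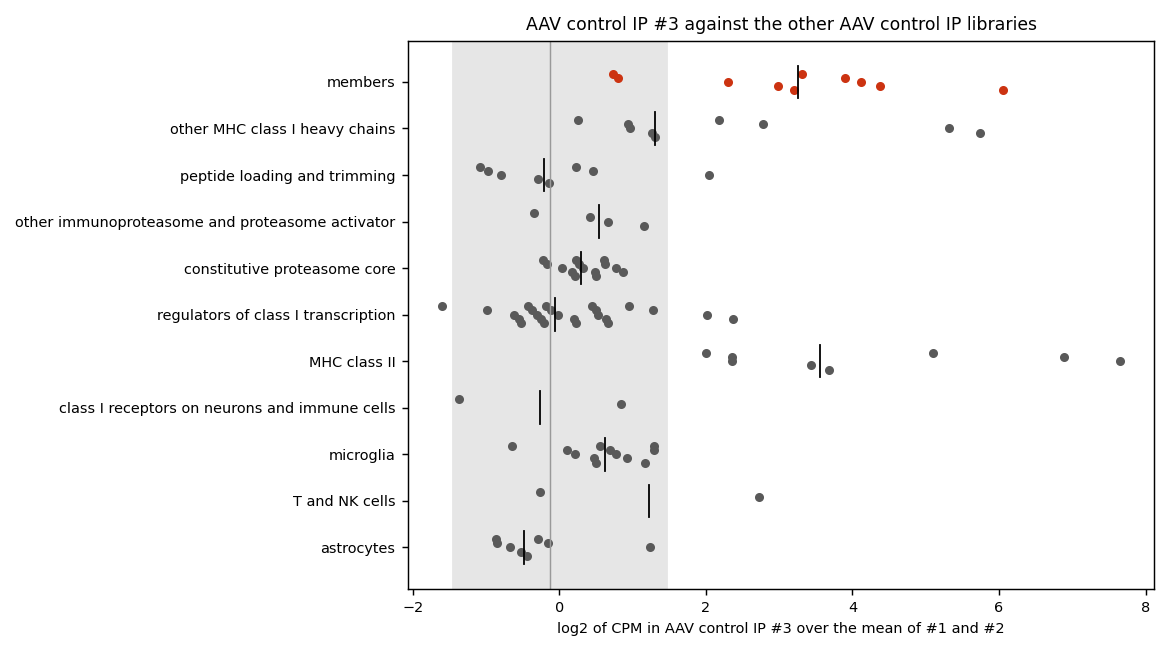
Log2 ratio of CPM in AAV control IP #3 to the mean of AAV control IP #1 and #2 for the 10 class I genes (members, red) and for genes of related pathways and cell types (grey). Short black bars are list medians, the grey band spans the 5% to 95% quantiles of all genes tested and the line their median. The class I and class II genes lie mostly to the right of the band, and microglia and astrocyte markers within it.

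Other genes of the pathway were followed through lists written from general knowledge of class I presentation. Of all genes tested, 18.6% were called higher and 19% lower in KA IP than in PBS IP, and 14.8% higher and 9.79% lower in input. Against AAV control these shares were 9.51% and 6.66% in IP and 5.02% and 1.09% in input, and without AAV control #3 they were 15.7% and 11.9% in IP and 12.4% and 7.79% in input. Of 9 tested other class I heavy chains, 4 were higher and 2 lower in KA IP than in PBS IP, and 6 were higher in KA input than in PBS input. Against AAV control, 0 were called in IP and 2 were higher in input, and without AAV control #3, 5 and 4 were higher. H2-M3, which presents formylated peptides, was at 6.49, 6.64 and 6.28 FPKM in KA input and at 1.31, 0.583 and 2.65 in AAV control input (log2 fold 1.995, SE 0.45, adjusted p = 0.0336). H2-T22, a ligand of some gamma delta T cells, was at 6.24, 5.32 and 4.54 against 3.26, 2.03 and 2.96 (log2 fold 0.94, SE 0.22, adjusted p = 0.0401). Some of these chains share sequence with H2-D1 and H2-K1.

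Of 8 genes of peptide loading and trimming, 2 were higher in KA IP than in AAV control IP: the chaperone calreticulin (Calr, log2 fold 0.73, SE 0.20, adjusted p = 0.0372) and Bcap31, an endoplasmic reticulum export factor (0.71, SE 0.20, adjusted p = 0.0438). Against PBS IP also 2 of the 8 were higher, and in input 3 were higher than in PBS and 0 were called against AAV control with edgeR. Without AAV control #3, 3 of the 8 were higher and 1 lower in IP, and 4 were higher and 1 lower in input. Of the immunoproteasome subunit Psmb10 and the proteasome activator genes Psme1, Psme2 and Psme3, 3 of 4 were higher than PBS in both IP and input. Against AAV control 0 of the 4 were called in either, and without AAV control #3, 2 were higher in IP and 3 in input. The 14 genes of the constitutive proteasome core gave other counts: 11 were higher in KA IP than in PBS IP, and in input 0 were higher and 1 was lower. Against AAV control, 0 of these 14 were called in IP and in input, but without AAV control #3, 7 were higher in IP and 9 in input.

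Among 24 regulators of class I transcription, 9 were higher and 2 lower in KA IP than in PBS IP, and 9 were higher and 1 lower in input. Against AAV control, 4 were higher and 1 lower in IP, and 5 were higher in input. Without AAV control #3 these counts were 8 and 3 in IP, and 8 in input. Socs3, a feedback inhibitor of cytokine signalling, was at 2.73, 2.49 and 1.23 FPKM in KA IP and at 0.298, 0.145 and 0.108 in AAV control IP, with a log2 fold of 3.68 (SE 0.46, adjusted p = 0.00126). AAV control #3 was not high for this gene. Irf8, an interferon regulatory factor of myeloid cells, had log2 folds of 2.19 in IP (SE 0.46, adjusted p = 0.0135) and 3.00 in input (SE 0.28, adjusted p = 0.000462). Ifngr2, a chain of the interferon gamma receptor, had 1.11 in IP (SE 0.17, adjusted p = 0.00313), and Irf9, an interferon regulatory factor of the type I interferon response, had 1.60 in input (SE 0.29, adjusted p = 0.0125). Rfxank, a subunit of the RFX complex that binds class I and class II promoters, fell by 0.81 on the log2 scale in KA IP (SE 0.23, adjusted p = 0.0422).

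Of 8 tested MHC class II genes, 6 were higher in KA IP and 8 in KA input than in PBS, and against AAV control 0 were called in IP and 2 in input. These were H2-DMb1 (log2 fold 1.77, SE 0.32, adjusted p = 0.0118) and H2-Oa (2.42, SE 0.54, adjusted p = 0.0307), which assist and restrain peptide loading of class II. Without AAV control #3, 5 and 8 of the 8 were higher. Their summed IP to input ratio in KA homogenates was 0.365 ± 0.0344 (SD, n = 3). That of the 10 class I genes, a sum held mostly by B2m and H2-D1, was higher in the same homogenates, at 0.756, 0.842 and 0.960. Of the receptors of class I molecules, 2 of 9 genes passed the count filter, and Pirb was lower in KA IP than in PBS IP (log2 fold -2.08, adjusted p = 0.0303). Its values were very low, at 0.0402, 0.043 and 0.0612 FPKM in KA IP and 0.154, 0.137 and 0.49 in PBS IP, with PBS #3 apart. Against AAV control IP, where it was at 0.0724, 0.0702 and 0.14, it was not called.

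The genes outside the 10 whose pattern was most like that of B2m were found by Pearson correlation of log2 CPM over 9 libraries of a kind, which share groups and samples, and are given as a description. Over the IP libraries they were H2-DMa (r = 0.989), Ccl19 (0.986), Irf1 (0.976), Irgm2 (0.973) and Gbp9 (0.965), and over input libraries Tagln2 (0.996), Tcn2 (0.995), Irf7 (0.994), Fcgr3 (0.992) and Orai1 (0.990). In AAV control IP #3, Irgm2, an interferon-inducible GTPase, was at 6.03 FPKM against 0.380 and 0.709 in #1 and #2. Over the 8 IP libraries without it, a choice made after seeing the data, r of the same 5 genes ranged from 0.937 (Gbp9) to 0.981 (H2-DMa). Among the other 9 class I genes r with B2m ranged from 0.754 (Tap2) to 0.992 (Psmb8) in IP and from 0.740 (Tap2) to 0.988 (H2-D1) in input. The 95th percentile of all genes was 0.720 in IP and 0.869 in input, so that Tap2 in input lay below it. Without AAV control #3 r of the 9 in IP ranged from 0.509 (Tap2) to 0.987 (Psmb8), and H2-D1, H2-T23 and Psmb8 lay above the 95th percentile of 0.907.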

How the data were processed

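RNA of 18 libraries (IP and input, 3 groups of 3 pooled samples) was sequenced on an Illumina NovaSeq. Per the submitters' processing notes the authors used STAR, featureCounts and edgeR with mm10, without versions. The annotation release, the strand setting and the treatment of multi-mapping reads are not given in the sources used here. The deposited counts are whole numbers per gene symbol without normalization, and the deposited FPKM values equal count per library total and fixed gene length, as checked on the files. Intervals and floors cover counting error only, and the floor for 0 counts was 3 counts.

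Groups were taken from the labels. edgeR 4.0.16 under R 4.3.3 was used to fit the counts (quasi-likelihood, TMM, two-sided, Benjamini-Hochberg adjustment over 17901 genes with a mean of at least 0.5 CPM), on the libraries compared, in 11 comparisons. The study's filter of FPKM above 1 was used as an alternative because it leaves out low class I genes. Other alternatives were DESeq2 1.42.0, limma-voom (limma 3.58.1), RLE factors, library totals, no filter, 1 fit of all libraries, the replicate block, sequencing run and leaving out each library. The fits were tested on simulated data. The sources do not say that pools of a group came from separate experiments beyond being separate samples, so p-values measure the spread between these samples. IP and input of a number come from 1 homogenate, so their numbers pair them. Same-numbered KA and AAV control libraries had residual correlations of 0.151 to 0.355. They are pools of different mice that share a sequencing run, and correlations between libraries of unlike number were not computed. Pairing by number beyond the run was therefore not shown for them. The correlations of same-numbered KA and PBS libraries ranged from -0.157 to 0.0929, and these share only a number.

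All 10 class I genes were named in each comparison. Of the other pathway genes, up to 3 per list and direction with the smallest p in KA against AAV control were named, in IP and in input, and the 5 genes most correlated with B2m in each. Genes named outside this rule (Cd74, Irf1, Nkg7, Trac and Pirb) were chosen after their values were seen. The class I genes and the lists were chosen with earlier results of these data known. Promoters came from RefSeq (GRCm38.p6), and gene positions from GENCODE M21 (GRCm38).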

Additional observations from a re-analysis of the deposited data

Results flagged for a closer look

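With PBS as baseline, 6 of the 10 class I genes had a KA effect in IP that was unlike that in input by an interaction test in edgeR over 12 libraries. The difference in log2 fold (IP minus input) was -1.51 for H2-D1 (adjusted p = 0.00197), -1.86 for H2-K1 (adjusted p = 0.000103) and -1.41 for B2m (adjusted p = 0.0044). For the immunoproteasome subunits it was -0.98 for Psmb8 (adjusted p = 0.0256) and -1.01 for Psmb9 (adjusted p = 0.0296). Nlrc5 had an adjusted p of 0.00385, and the size of its difference depends on how 0 counts in PBS input are treated. All 6 remained lower by sign without any 1 library, and 4 to 6 of the 10 genes were then called. The calls of Psmb8 and Psmb9 were lost in 10 of 20 and 8 of 19 alternatives. In a fit of all 18 libraries, whose spread includes that of the AAV control group, 0 of the 10 were called.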

How the results depend on the processing

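Of 1677 values of the 10 class I genes under the alternatives, 1384 kept their direction and side of the threshold, 95 lost their call, 111 gained one and 87 turned direction. None of those that turned had been called with all libraries and the stated fit. Where no cause is given below, the cause was not tested.

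The numbers of the 10 genes called were as follows for the settings that moved them. KA against AAV control in IP went from 0 to 2 with no filter, H2-T23 and Psmb9, which were lower in KA. Within run 1 it went to 9, which were higher in KA. KA against PBS in IP went from 8 to 3 in 1 fit of all libraries, and PBS against AAV control in IP from 0 to 7 with no filter (lower in PBS). KA against AAV control in input went from 5 to 8 with DESeq2, 9 with limma-voom, 8 with library totals, 3 with the FPKM filter (which left 6 of the 10 to test), 10 with no filter, 2 in 1 fit of all libraries, 9 with the replicate block, 10 with run as a covariate and 10 within run 1. KA against PBS in input went from 10 to 6 with the FPKM filter, which left 6 to test. PBS against AAV control in input went from 0 to 2 with no filter (H2-D1 and H2-K1, lower in PBS). IP against input went from 4 to 1 in KA with library totals and with 1 fit of all libraries. In PBS it went from 9 to 5 with the FPKM filter and 4 in 1 fit of all libraries. In AAV control it went from 5 to 3 with DESeq2, limma-voom and the FPKM filter, 10 with no filter, 9 with 1 fit of all libraries and with the replicate block, and 8 without homogenate 3, a setting chosen after seeing the data. The KA effect in IP against input went from 0 to 7 with no filter, 2 in 1 fit of all libraries, 8 with the replicate block, 5 with run as a covariate, 7 within run 1 and 6 without homogenate 3 with AAV control as baseline, and from 6 to 0 in 1 fit of all libraries with PBS as baseline. The replicate block moved no other count by over 1.5 times (KA against PBS gave 7 in IP and 10 in input).

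Leaving out each library in turn gave 0 to 8 for KA against AAV control in IP, 7 to 10 for KA against PBS in IP, 0 to 1 for PBS against AAV control in IP, 0 to 10 for KA against AAV control in input, 10 for KA against PBS in input and 0 to 3 for PBS against AAV control in input. For IP against input it gave 1 to 4 in KA, 2 to 6 in AAV control and 8 to 10 in PBS, and for the KA effect in IP against input 0 to 2 with AAV control and 4 to 6 with PBS as baseline. The log2 folds that turned had these ranges, for KA against AAV control in IP Tapbp (-0.18 to 0.41), Tap2 (-0.34 to 0.24), H2-D1 (-1.31 to 2.29), H2-K1 (-1.01 to 1.31), H2-T23 (-1.91 to 3.34), B2m (-0.96 to 2.40), Tap1 (-0.74 to 1.01), Psmb8 (-1.11 to 2.05), Psmb9 (-1.29 to 1.24), for PBS against AAV control in IP H2-D1 (-3.13 to 0.39), H2-T23 (-4.08 to 1.08), B2m (-2.60 to 0.69), Psmb8 (-2.64 to 0.46), Nlrc5 (-1.002 to 1.75), for PBS against AAV control in input Tapbp (-0.12 to 0.19), H2-D1 (-1.32 to 0.45), H2-K1 (-1.38 to 0.013), H2-T23 (-0.43 to 1.01), B2m (-0.97 to 0.83), Tap1 (-0.81 to 0.68), Psmb8 (-0.49 to 0.84), Tap2 (-0.66 to 0.003), for IP against input in KA B2m (-0.15 to 0.17), Psmb9 (-0.092 to 0.16), H2-D1 (-0.10 to 0.045), for IP against input in AAV control H2-T23 (-1.51 to 4.22), Nlrc5 (-0.17 to 4.47), for the KA effect in IP against input with AAV control as baseline H2-T23 (-4.32 to 1.42), Nlrc5 (-4.07 to 0.59), for the same with PBS as baseline H2-T23 (-0.013 to 0.58).

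With limma-voom the turned log2 folds were, for KA against AAV control in IP H2-D1 (0.81), H2-K1 (0.28), H2-T23 (1.25), B2m (0.98), Tap1 (0.10), Psmb8 (0.63) and Psmb9 (0.074), for PBS against AAV control in IP Nlrc5 (0.24), for PBS against AAV control in input H2-T23 (0.28) and Psmb8 (0.15), for IP against input in KA Psmb9 (0.008). With the replicate block the turned log2 folds were, for KA against AAV control in IP H2-D1 (1.02), H2-K1 (0.36), H2-T23 (1.503), B2m (1.09), Tap1 (0.13), Psmb8 (0.63) and Psmb9 (0.10), for PBS against AAV control in IP Nlrc5 (0.012), for PBS against AAV control in input H2-T23 (0.28) and Psmb8 (0.12), for IP against input in KA Psmb9 (0.004). With the run as a covariate the turned log2 folds were, for KA against AAV control in IP H2-D1 (1.01), H2-K1 (0.36), H2-T23 (1.44), B2m (1.08), Tap1 (0.11), Psmb8 (0.59) and Psmb9 (0.072). With run 1 alone the turned log2 folds were, for KA against AAV control in IP H2-D1 (2.27), H2-K1 (1.39), H2-T23 (3.15), B2m (2.19), Tap1 (1.21), Tap2 (0.39), Psmb8 (1.87) and Psmb9 (1.33), for the KA effect in IP against input with AAV control as baseline H2-T23 (0.18). With library totals the turned log2 folds were, for KA against AAV control in IP Tapbp (-0.10), for PBS against AAV control in input Tapbp (-0.024), for IP against input in KA B2m (-0.27), for the KA effect in IP against input with PBS as baseline H2-T23 (-0.11). With the FPKM filter the turned log2 folds were, for KA against AAV control in IP Tapbp (-0.083), for PBS against AAV control in input Tapbp (-0.002), for IP against input in KA B2m (-0.035), for the KA effect in IP against input with PBS as baseline H2-T23 (-0.052). With no filter the turned log2 folds were, for IP against input in KA Psmb9 (0.007). With 1 fit of all libraries the turned log2 folds were, for IP against input in KA Psmb9 (0.010). With leaving out AAV control homogenate 3 the turned log2 folds were, for IP against input in AAV control H2-T23 (-0.40), for the KA effect in IP against input with AAV control as baseline H2-T23 (0.35).

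Nlrc5 had fewer than 10 counts in most control libraries, which limits the precision of its folds.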
